A study of Mus musculus with 12 samples.

Results

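The genes described here are the axon guidance ligands and their receptors: netrins and netrin-Gs, semaphorins of classes 3 to 7, Slits and ephrins on the ligand side, and DCC, UNC5s, neuropilins, plexins, Robos and Eph kinases on the receptor side. They were picked by gene name alone among the protein-coding genes listed in the deposited YTHDF1 RIP result table, which holds 16716 genes. The names matched 64 genes, 34 ligands and 30 receptors. A further 7 genes with matching names (Efna1, Epha1, Epha2, Ntn5, Robo3, Robo4 and Sema3g) were in the count table but not in that list, and none of them reached more than 103 counts over the 12 libraries together. Of the 64 members, 63 passed the filter on low counts (a mean of at least 10 normalized counts per library). The exception was Sema3b, a secreted semaphorin, with 2 to 13 counts per library in Input, 7 to 18 with YTHDF1, 2 to 8 with YTHDF2 and 8 to 30 with YTHDF3.

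Axon guidance cues are secreted or membrane-bound proteins that steer a growing neurite by attraction or repulsion. Netrins act through DCC and UNC5, Slits through Robos, class 3 semaphorins through neuropilins and plexins, membrane semaphorins directly through plexins, and ephrins through Eph receptor tyrosine kinases. In hippocampal neurons many of these proteins remain at synapses after the axon has reached its target, where they shape dendritic spines and adhesion. The readers YTHDF1, YTHDF2 and YTHDF3 sit in the cytoplasm and bind N6-methyladenosine (m6A) in mRNA, a mark that is placed mostly at the A of a GGACU-like motif and lies densest near stop codons. RNA immunoprecipitation (RIP) recovers the RNA that stays with a protein when an antibody pulls it from a lysate, and the comparison with the input lysate asks which transcripts each reader holds.

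Primary hippocampal neurons from newborn C57BL/6 mice were kept for 14 days in culture, with no genetic change and no treatment in any group. The 4 groups were total RNA of the lysate (Input) and RNA eluted from antibodies against endogenous YTHDF1, YTHDF2 or YTHDF3, with 3 replicates each. No RIP with a control antibody is among the groups, so a ratio to Input holds what the antibody and the beads retained as well as what the reader bound. The cultures are mixed, and in such bulk samples fewer cells of a type and less RNA per cell cannot be told apart.

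The libraries held 6020072 to 38909592 counted fragments. Protein-coding genes took 62.15 to 64.66% of them in Input, 89.6 to 95.99% with YTHDF1, 69.91 to 75.22% with YTHDF2 and 94.47 to 95.29% with YTHDF3. Counts were scaled by edgeR's TMM factors, and levels are given on that scale as CPM, the count of a gene relative to the effective library size. The test was edgeR's quasi-likelihood test over all 16820 genes with a mean of at least 10 normalized counts. Of these, 13390 are protein-coding, as all members are. The shares of all genes given beside those of members thus include genes that are not protein-coding. Shares over protein-coding genes alone were not computed. Calls needed an adjusted p of at most 0.05. The fold change had to reach 1.25 for a RIP against Input, in which case the gene is called enriched or depleted, and 2 for a pair of RIPs.

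Libraries did not match equally well. Input replicate 1 and YTHDF3 RIP replicate 1 stood apart from the other replicates of their groups in markers of non-neuronal cells. The summed level of the 5 tested oligodendrocyte lineage markers was 23.92 CPM in Input replicate 1 against 172.2 and 168.5 CPM in replicates 2 and 3, and 25.63 CPM in YTHDF3 RIP replicate 1 against 293.8 and 318.7 CPM. The 4 meningeal fibroblast markers summed to 4.952 CPM in Input replicate 1 (60.1 and 30.35 CPM in the others) and to 3.611 CPM in YTHDF3 RIP replicate 1 (99.32 and 47.77 CPM). In the YTHDF1 and YTHDF2 RIPs the fibroblast markers spanned 38.16 to 67.68 and 67.44 to 110.4 CPM, and the oligodendrocyte markers 192.2 to 517.5 and 270.9 to 432.5 CPM. The 6 astrocyte markers spanned 997.3 to 3331 CPM in Input, 1221 to 2847, 1710 to 2327 and 1202 to 2646 CPM with YTHDF1, YTHDF2 and YTHDF3, and the 6 pan-neuronal markers 2546 to 3814, 4181 to 7117, 1734 to 2724 and 2937 to 5701 CPM. All pan-neuronal markers were thus present, as the label says. Of 5 microglial markers only Csf1r was tested, at 1.539 to 2.514 CPM in Input, and Cx3cr1, P2ry12, Tmem119 and Aif1 were below the filter. The 3 inhibitory neuron markers set another group of libraries apart: Input replicate 3 (155.5 CPM, against 553.4 and 415.3 CPM in the other Input libraries), YTHDF1 RIP replicate 2 (164.7 against 560.2 and 532 CPM), YTHDF2 RIP replicate 2 (93.45 against 271.9 and 311.4 CPM) and YTHDF3 RIP replicate 3 (150.5 against 652 and 397.5 CPM). The contrast was not confined to inhibitory markers. Input replicate 3, YTHDF2 RIP replicate 2 and YTHDF3 RIP replicate 3 were also lowest of their groups in the 4 excitatory markers (398.5, 245.2 and 304.4 CPM). The same held for the pan-neuronal markers (2546, 1734 and 2937 CPM). YTHDF1 RIP replicate 2 was lowest in neither (450.9 and 5931 CPM). Deviations from the group means correlated at 0.471 between Input replicate 3 and YTHDF1 RIP replicate 2, and at 0.568 between Input replicate 3 and YTHDF2 RIP replicate 2. Counts of members without Input replicate 1 and YTHDF3 RIP replicate 1, and without the 4 libraries low in inhibitory neuron markers, are given beside each main count. Both alternatives were chosen after seeing the data.

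In Input the members covered a 302.4-fold range per kilobase of exon, from 0.1234 CPM per kilobase for Plxnb3 to 37.32 CPM per kilobase for Plxna1. Their median was 5.395 CPM per kilobase, beside 4.114 over all genes tested. Exonic length joins all annotated exons of a gene and can exceed that of any single transcript. Ranks per kilobase thus depend on the annotation. For Nrp1 this length was 9785 bases, where the protein-coding transcript searched below had 3597. Per kilobase of exon, the highest receptor was Plxna1, a co-receptor of class 3 semaphorins (37.32 ± 4.159, SD, n = 3). Nrp2, a neuropilin that binds Sema3f (28.72 ± 5.211), and Epha4, an Eph kinase that binds ephrins of both classes (26.76 ± 1.538), followed. Within 1 SD the Nrp2 level overlapped with those of Plxna1 and Epha4, while the latter pair did not overlap. Among ligands, Efnb3, a transmembrane ephrin (30.62 ± 1.397), led before Sema6b (20.37 ± 3.418), a transmembrane semaphorin, and Slit3 (19.98 ± 3.01), a secreted Robo ligand, and the last 2 did not differ beyond their spread. The leading members of the other families were Unc5a (16.17 ± 2.179), Ntng2 (14.82 ± 4.81), Efna3 (11.17 ± 1.637), Robo1 (7.373 ± 1.727), Ephb6 (6.805 ± 0.3832), Sema3e (6.633 ± 1.413) and Ntn4 (1.751 ± 0.8124), all in CPM per kilobase. Members took 0.623 to 0.694% of the protein-coding counts in Input, 0.741 to 0.861% with YTHDF1, 0.718 to 0.807% with YTHDF2 and 0.902 to 0.975% with YTHDF3. On this share, which does not depend on the scaling between libraries, each RIP lay above Input in all 3 replicates.

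**Figure D1:**
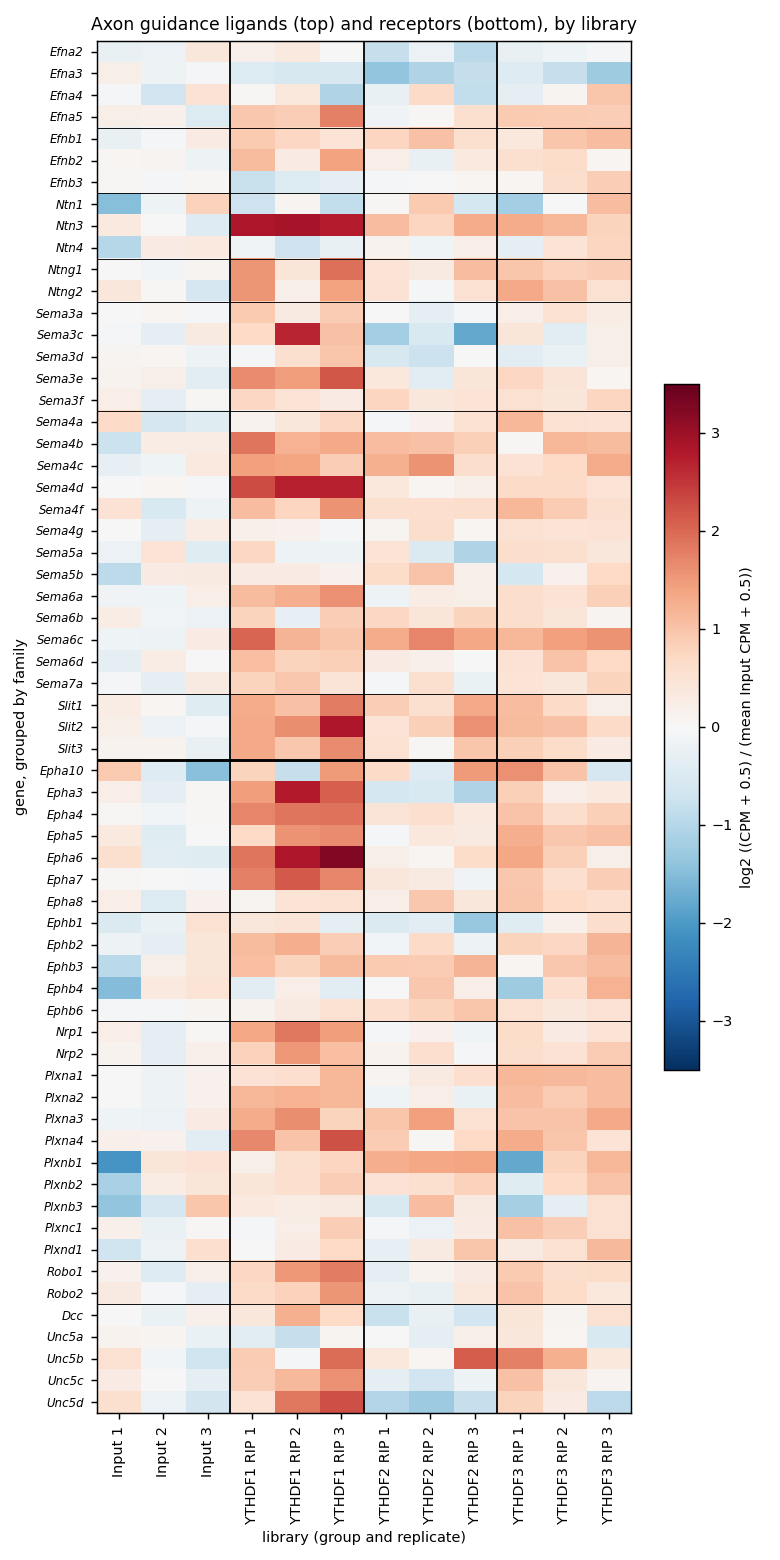
Heat map of the 63 tested members (rows, ligands above receptors) in the 12 libraries (columns by group). Colour gives log2 of the CPM plus 0.5 over the mean Input CPM plus 0.5, from -3.5 to 3.5. The YTHDF1 RIP columns are the reddest block, with 38 members called enriched there, and most rows are paler in the YTHDF2 RIP, with 10.

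Sequences around the core m6A motif are shown for a part of the members named in the results. GGACT, the DNA spelling of the core m6A motif, was searched on the transcript strand of the longest protein-coding transcript per gene (GENCODE M21, GRCm38), which was found for all 63 tested members and for 13133 of 13390 tested protein-coding genes. It was present in all 63 members and in 12220 genes in all (93.0%). The members held a median of 7 matches per transcript (2 to 22), against 4 over all genes, or 1.275 against 1.041 matches per kilobase. Within 200 bases of the stop codon, 28 members (44.4%) and 5241 genes (39.9%) held one. Each window holds the match nearest the stop codon among those whose window lies within 1 exon, with the motif in capitals. Other named members, among them Sema3c and Unc5d, are not shown.
Ntn3, 3′ UTR, chr17:24206563-24206592, minus strand: caagctgggcgtGGACTgggcGGACTcagc
Sema4d, coding sequence, chr13:51702598-51702627, minus strand: ggatgctgacggGGACTgaggccagcgtgt
Slit2, 3′ UTR, chr5:48304286-48304315, plus strand: cttgaccatgttGGACTaattcatgcttca
Sema6c, 3′ UTR, chr3:95173329-95173358, plus strand: gctggccttcccGGACTccgagactctccc
Efna3, 3′ UTR, chr3:89315160-89315189, minus strand: aggcagtgctcaGGACTccctggcccctgg
Efnb3, coding sequence, chr11:69555964-69555993, minus strand: tgcggggtggtgGGACTgcagaccccccct
Epha6, 3′ UTR, chr16:59653704-59653733, minus strand: ggaagtgttcatGGACTtcacctaaaggaa
Epha3, coding sequence, chr16:63566678-63566707, minus strand: tcagttgatgttGGACTgctggcagaaaga
Epha4, coding sequence, chr1:77377513-77377542, minus strand: tcagttaatgctGGACTgctggcagaaaga
Plxna2, coding sequence, chr1:194810197-194810226, plus strand: ccgactaggcaaGGACTcaccttccaacaa
Plxna3, coding sequence, chrX:74341671-74341700, plus strand: ccgcctgggcaaGGACTcaccttccaacaa

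Enriched and depleted members alike held the motif. The depleted Efna3 had 3 matches and Efnb3 had 5, where Ntn3 had 10, Epha6 had 10, Epha3 had 11, Sema4d had 7 and Slit2 had 20. These transcripts differ in length. Per kilobase the values were 1.27, 1.57, 1.98, 2.54, 1.94, 1.56 and 2.01 in the same order. Efna3 was thus near the median of members (1.275) and Efnb3 near Sema4d. The Ntn3 window has 2 motifs within its 30 bases, the first starting 18 bases past the stop codon. The coding windows of Epha3 and Epha4 were identical at 28 of 30 bases, as were those of Plxna2 and Plxna3. Across the 63 members the rank correlation of matches per kilobase with log2 enrichment was 0.1 for YTHDF1, 0.149 for YTHDF2 and 0.101 for YTHDF3, and over all genes 0.019, 0.11 and 0.051. For the number of matches per transcript it was 0.383, 0.05 and 0.212 over members and 0.465, 0.384 and 0.488 over all genes. A match is a description of the letters, not a mapped m6A site, and these correlations across genes share transcript length and base composition.

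In the YTHDF1 RIP most guidance transcripts were enriched. Of the 63 tested members 38 were called enriched (60.3%), against 27.5% of all genes tested, and 1 was called depleted, against 26.1% of all genes. The median log2 fold change over members was 1.02, and 0.02 over all genes. They were 20 of 33 ligands and 18 of 30 receptors, with median log2 fold changes of 0.90 and 1.09 over these groups. Without Input replicate 1 and YTHDF3 RIP replicate 1, 38 of 64 tested members were enriched and 2 depleted (59.4 and 3.1%, beside 24.5 and 24.4% of all genes). Without the 4 libraries low in inhibitory neuron markers 38 of 62 were enriched (61.3%, beside 25.9%).

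The largest YTHDF1 enrichment among members was that of Ntn3, a netrin, at 10.13, 7.842 and 5.576 CPM in Input and at 59.32, 61.03 and 55.78 CPM in the YTHDF1 RIP. The RIP libraries lay together, far above Input. The log2 fold change was 2.90 ± 0.25 (SE, edgeR adjusted p = 7.97e-06), a 7.44-fold difference. Ntn3 shares 89 exonic bases with its neighbour Tbc1d24 on the same strand, so a part of its counts cannot be assigned to it alone.

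Sema4d, a transmembrane semaphorin that signals through plexin-B receptors, had 51.73, 55.19 and 50.93 CPM in Input and 255.7, 349.7 and 347.3 CPM in the YTHDF1 RIP. All 3 RIP libraries were several times higher and the groups were far apart, at a log2 fold change of 2.59 ± 0.18 (edgeR adjusted p = 2.47e-06). Slit2, a secreted repellent read by Robo receptors, had 85.33, 63.25 and 71.74 CPM in Input and 184.1, 226.1 and 526.2 CPM in the YTHDF1 RIP, with replicate 3 far above the others. Its log2 fold change was 2.09 ± 0.40 (edgeR adjusted p = 0.00113). All 3 Slits were enriched: Slit3 by 1.34 ± 0.27 (edgeR adjusted p = 0.00167) and Slit1 by 1.41 ± 0.30 on the log2 scale (edgeR adjusted p = 0.00233).

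Of the secreted class 3 semaphorins 3 of 5 were enriched. Sema3e, which binds plexin-D1, went from 67.65, 70.58 and 46.54 CPM in Input to 193.8, 170.9 and 278.9 CPM (log2 fold change 1.80 ± 0.28, edgeR adjusted p = 0.000319). Sema3c had 27.2, 22.72 and 35.17 CPM in Input and 46.72, 182.8 and 58.74 CPM in the RIP, where replicate 2 stood far above the others (1.76 ± 0.49, edgeR adjusted p = 0.0104). Without that replicate it was not called (0.83, edgeR adjusted p = 0.0612). Sema3a, the classical collapsing factor of growth cones, changed by 0.80 ± 0.23 (edgeR adjusted p = 0.0129). Of the 13 semaphorins of classes 4 to 7, 8 were enriched, among them Sema6c and Sema4c, which are described with the YTHDF2 RIP.

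Ephrins went both ways. Efnb1 and Efnb2, transmembrane ligands of the B class, were enriched (0.74 ± 0.24, edgeR adjusted p = 0.0213, and 1.02 ± 0.28, edgeR adjusted p = 0.00951). The third of their class, Efnb3, was the single depleted member, with 100.4, 92.35 and 99.62 CPM in Input and 56.89, 69.56 and 76.37 CPM in the YTHDF1 RIP. Each RIP library was below each Input library, at a log2 fold change of -0.53 ± 0.20 (edgeR adjusted p = 0.0437). This call was fragile: it was lost without any 1 of 8 libraries (Input replicates 1, 2 or 3, YTHDF1 RIP replicate 1, YTHDF2 RIP replicates 1, 2 or 3, or YTHDF3 RIP replicate 2), at edgeR adjusted p-values of 0.0517 to 0.135. Among the GPI-anchored A class, Efna5 was enriched (1.37 ± 0.32, edgeR adjusted p = 0.00409), while Efna3 had 31.62, 23.89 and 26.06 CPM in Input and 19.2, 18.21 and 18.14 CPM in the RIP (-0.56 ± 0.22, edgeR adjusted p = 0.0542), which missed the threshold. Both netrin-Gs, GPI-anchored synaptic relatives of netrins, were enriched. Ntng2 did not separate fully, with 77.41, 60.9 and 39.14 CPM in Input and 174.4, 66.93 and 157.5 CPM in the RIP (1.17 ± 0.37, edgeR adjusted p = 0.0197). It lost its call without Input replicates 2 or 3 or YTHDF1 RIP replicates 1 or 3 (edgeR adjusted p-values 0.0517 to 0.109), and 558 of its 3990 exonic bases are shared with 6530402F18Rik on the same strand.

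Among receptors 5 of 7 EphA kinases were enriched. Epha6 had 83.73, 43.61 and 41.71 CPM in Input and 208.1, 400.3 and 540.4 CPM in the YTHDF1 RIP, so that even the lowest RIP library was far above the highest Input library. Its log2 fold change was 2.76 ± 0.42 (edgeR adjusted p = 0.000261), or 6.79-fold. Epha3 had 20.95, 14.22 and 18.44 CPM in Input and 50.53, 126.3 and 77.74 CPM in the RIP (2.25 ± 0.32, edgeR adjusted p = 0.000179). Epha4, the most abundant Eph receptor, was more even over replicates, with 221.9, 201.3 and 223.5 CPM in Input and 702.2, 786.8 and 804 CPM in the RIP (1.83 ± 0.17, edgeR adjusted p = 1.14e-05). Epha7, a receptor of A ephrins, was enriched by 1.89 ± 0.19 on the log2 scale (edgeR adjusted p = 2.18e-05).

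The receptors of the other cues were enriched in part: 2 of 2 neuropilins, 2 of 2 Robos, 4 of 9 plexins, 2 of 5 EphB kinases and 3 of 5 of the DCC and UNC5 group. Robo1, a Slit receptor, had 136.1, 88.9 and 140.3 CPM in Input and 203.2, 351 and 423 CPM in the RIP (1.42 ± 0.29, edgeR adjusted p = 0.00155). Nrp2 had 367.3, 269.4 and 383.5 CPM in Input and 599.2, 966.3 and 709.1 CPM in the RIP (1.16 ± 0.25, edgeR adjusted p = 0.00232). In both genes every RIP library was above every Input library. Unc5d, a netrin receptor tied to repulsion, overlapped between groups: Input had 51.35, 29.98 and 21.66 CPM and the RIP 49.26, 123.6 and 164.6 CPM (1.71 ± 0.50, edgeR adjusted p = 0.0124). Its call was lost without Input replicate 3 (1.35, edgeR adjusted p = 0.0607) or YTHDF1 RIP replicate 3 (1.21, edgeR adjusted p = 0.0686). Its family member Unc5a, the highest of the group per kilobase of exon in Input, was not called. It had 73.29, 71.97 and 56.94 CPM in Input and 52.5, 38.41 and 71.4 CPM in the RIP. DCC, the attractive netrin receptor, was enriched by 0.82 ± 0.24 on the log2 scale (edgeR adjusted p = 0.0135).

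**Figure D2:**
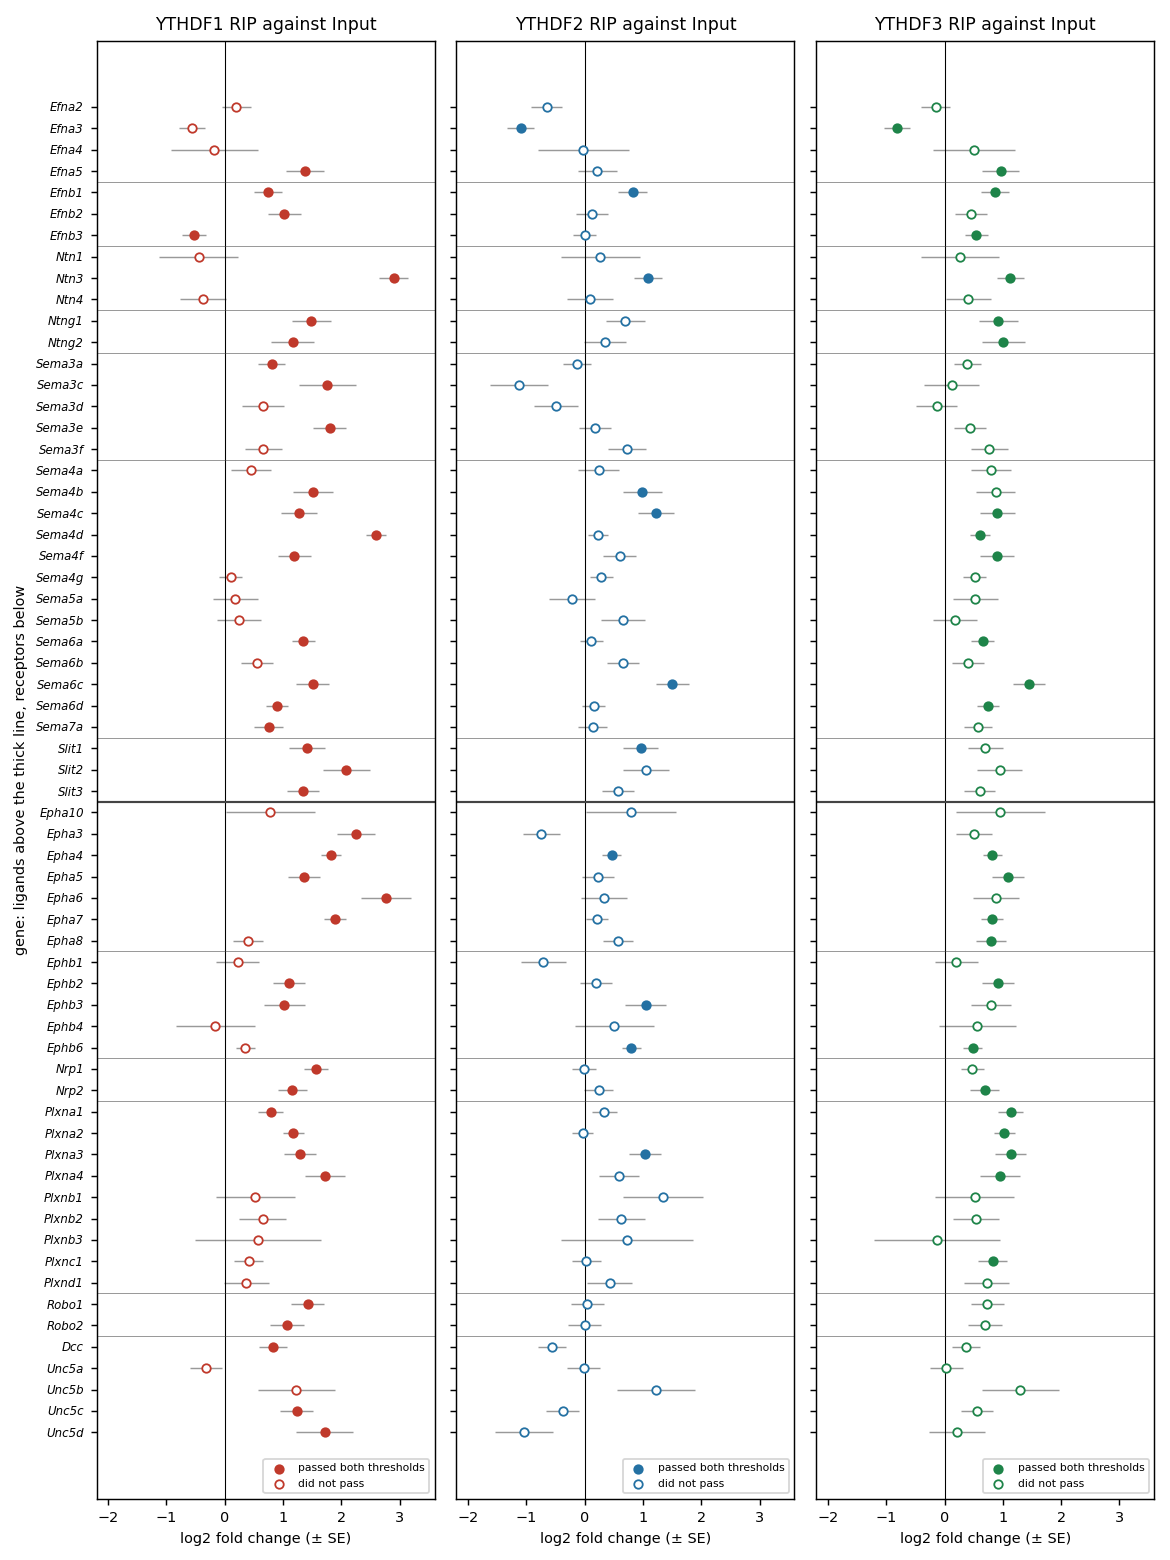
Log2 fold change of each of the 63 tested members against Input, 1 panel per RIP, with the standard error as a bar. Filled points passed both thresholds (39, 11 and 25 members from the left panel to the right, of which 1 each lies below 0).

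In the YTHDF2 RIP guidance transcripts were called enriched at the rate of all genes. Of the 63 members 10 were called enriched (15.9%), near the 16.1% of all genes tested, and 1 was called depleted, against 19.3% of all genes. The median log2 fold change was 0.24 over members and 0.02 over all genes. The 10 were 6 ligands (Sema6c, Sema4c, Sema4b, Ntn3, Slit1 and Efnb1) and 4 receptors (Ephb3, Ephb6, Plxna3 and Epha4). Without Input replicate 1 and YTHDF3 RIP replicate 1 the counts were 9 enriched and 1 depleted (14.1 and 1.6%, beside 11.8 and 15.8% of all genes). Without the 4 libraries low in inhibitory neuron markers they were 9 and 4 (14.5 and 6.5%, beside 13.1 and 16.9%). The enriched count fell to 4 without Input replicate 2 (6.2%, beside 11.3%). It was 6 without YTHDF2 RIP replicate 1 (9.4%, beside 11.5%), 5 without replicate 2 (7.9%, beside 12.8%) and 6 without replicate 3 (9.5%, beside 12.6%).

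Sema6c, a transmembrane semaphorin, was the member most enriched with YTHDF2, at 9.904, 9.748 and 13.51 CPM in Input and 28.04, 36.93 and 28.84 CPM in the RIP (log2 fold change 1.50 ± 0.28, edgeR adjusted p = 0.00213). It had 46.6, 25.75 and 22.14 CPM in the YTHDF1 RIP and 25.43, 30.63 and 34.14 CPM in the YTHDF3 RIP. These changes were 1.51 ± 0.28 (edgeR adjusted p = 0.000957) and 1.45 ± 0.28 (edgeR adjusted p = 0.00178), so that all 9 RIP libraries were above the 3 Input libraries. Sema4c, which signals through plexin-B2, had 12.65, 14.14 and 20.16 CPM in Input and 37.74, 47.55 and 24.24 CPM in the YTHDF2 RIP (1.22 ± 0.31, edgeR adjusted p = 0.0102). Its values were 1.28 ± 0.31 in the YTHDF1 RIP (edgeR adjusted p = 0.00461) and 0.90 ± 0.31 in the YTHDF3 RIP (edgeR adjusted p = 0.0341). The YTHDF3 call was lost without Input replicates 1 or 2 or YTHDF3 RIP replicates 2 or 3 (edgeR adjusted p-values 0.054 to 0.143). Ntn3 reached 17.01, 13.46 and 19.98 CPM in the YTHDF2 RIP, each above Input but well below the YTHDF1 RIP (1.09 ± 0.24, edgeR adjusted p = 0.00495).

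Plxna3, a plexin used by class 3 semaphorins, had 36.57, 35.4 and 49.97 CPM in Input and 80.66, 110.5 and 59.03 CPM in the YTHDF2 RIP (1.04 ± 0.27, edgeR adjusted p = 0.0123). Without Input replicate 2 or YTHDF2 RIP replicate 2 it was not called (edgeR adjusted p = 0.0517 and 0.0537). Ephb3, an EphB kinase with roles in synapse formation, had 5.105, 11.73 and 13.73 CPM in Input and 19.53, 19.44 and 24.02 CPM in the RIP (1.05 ± 0.35, edgeR adjusted p = 0.0369). Input replicate 1 was the low library for Ephb3, and the call was lost without it or Input replicate 2 or any YTHDF2 library (edgeR adjusted p-values 0.0632 to 0.104). Ephb6, a relative without kinase activity, had 24.91, 24.77 and 27.34 CPM in Input and 38.8, 44.11 and 50.72 CPM in the RIP (0.80 ± 0.16, edgeR adjusted p = 0.00344). It was not called in the YTHDF1 RIP (28.1, 32.29 and 37.57 CPM, 0.35 ± 0.16, edgeR adjusted p = 0.0898). Epha4 was enriched by 0.46 ± 0.16 (292.9, 324.9 and 271.9 CPM, edgeR adjusted p = 0.0472), a call that was lost without any 1 of the Input, YTHDF2 or YTHDF3 libraries (edgeR adjusted p-values 0.0522 to 0.149).

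Efna3, a GPI-anchored ephrin that presents to EphA receptors, was depleted in the YTHDF2 RIP, with 10.23, 12.86 and 14.93 CPM against 31.62, 23.89 and 26.06 CPM in Input. Every RIP library was below every Input library, and the log2 fold change was -1.10 ± 0.23 (edgeR adjusted p = 0.00366). Epha3 (11.56, 12.11 and 8.417 CPM) and Sema3c (11.96, 19.29 and 7.855 CPM) lay below Input in every YTHDF2 library but were not called, at -0.74 ± 0.32 (edgeR adjusted p = 0.0947) and -1.13 ± 0.50 (edgeR adjusted p = 0.0996). Slit2 (102.3, 130.1 and 224.9 CPM) lay above Input in every YTHDF2 library and was not called either (1.05 ± 0.39, edgeR adjusted p = 0.0544).

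In the YTHDF3 RIP 24 of 63 members were called enriched (38.1%), against 16.7% of all genes, and 1 was called depleted, against 23.2% of all genes. The median log2 fold change was 0.69 over members and 0.05 over all genes. The 24 were 12 of 33 ligands and 12 of 30 receptors. Plexins gave 5 of 9, EphA kinases 4 of 7, semaphorins of classes 4 to 7 gave 6 of 13, both netrin-Gs were called, and of the 3 B ephrins 2 were. This count rests on few libraries. It was 15 of 64 without Input replicate 1 and YTHDF3 RIP replicate 1 (23.4%, beside 10.6% of all genes). Without the 4 libraries low in inhibitory neuron markers it was 18 of 62 (29.0%, beside 14.2%). It was 11 without Input replicate 2 (17.2%, beside 11.6%). Without YTHDF3 RIP replicate 2 it was 10 (15.9%, beside 12.1%), nearer the share of all genes. Same-numbered Input and YTHDF3 libraries deviated together from their group means (correlations 0.835, 0.539 and 0.812), and a fit of these 2 groups with the replicate number as a block called 53 of 64 members enriched (82.8%, against 36.4% of all genes) and 1 depleted, the 24 among them.

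Plxna1, the member with the highest Input level per kilobase, had 340.7, 298.9 and 374 CPM in Input and 763.3, 749.2 and 715.8 CPM in the YTHDF3 RIP. The groups lay well apart (1.14 ± 0.22, edgeR adjusted p = 0.00162), and the YTHDF1 libraries lay between them in 2 of 3 replicates (484.5, 505.4 and 762.4 CPM, 0.79 ± 0.22, edgeR adjusted p = 0.00913). Without YTHDF1 RIP replicate 3 the latter was 0.46 and not called (edgeR adjusted p = 0.0671). Plxna2, a co-receptor of the same semaphorins, had 295.8, 255.6 and 322.7 CPM in Input and 621.1, 539.5 and 613.2 CPM in the YTHDF3 RIP (1.02 ± 0.18, edgeR adjusted p = 0.000942). Plxna3 had 82.43, 81.47 and 103 CPM there (1.13 ± 0.27, edgeR adjusted p = 0.00627). Epha5, an EphA kinase that is abundant in the hippocampus, had 142.2, 83.18 and 112.8 CPM in Input and 272.7, 219.1 and 230.0 CPM in the RIP (1.09 ± 0.28, edgeR adjusted p = 0.00814). Ntn3 had 19.88, 18.07 and 13.76 CPM in the YTHDF3 RIP (1.13 ± 0.24, edgeR adjusted p = 0.00295), near its level with YTHDF2.

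Efnb3 was enriched with YTHDF3 where it was depleted with YTHDF1: its YTHDF3 libraries had 101.6, 148.3 and 176.1 CPM, the first just above the highest Input library (0.54 ± 0.20, edgeR adjusted p = 0.0489). The YTHDF3 call, too, was lost without any 1 of 8 libraries (the Input and YTHDF2 libraries and YTHDF3 RIP replicates 2 or 3, edgeR adjusted p-values 0.0621 to 0.2). Its YTHDF2 libraries had 94.74, 96 and 101.6 CPM, within the span of Input or just above. Efna3 was the depleted member here as well, with 19.84, 15.26 and 11.21 CPM (-0.82 ± 0.22, edgeR adjusted p = 0.0126), although not without Input replicate 1 (-0.70, edgeR adjusted p = 0.0505). Sema4d was enriched by 0.61 ± 0.17 (83.48, 83.95 and 73.17 CPM, edgeR adjusted p = 0.013), all above Input, and not without YTHDF3 RIP replicate 2 (0.58, edgeR adjusted p = 0.0503). Epha6 (145.6, 101.5 and 65.17 CPM, 0.88 ± 0.40, edgeR adjusted p = 0.101) overlapped with Input and was not called.

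**Figure D3:**
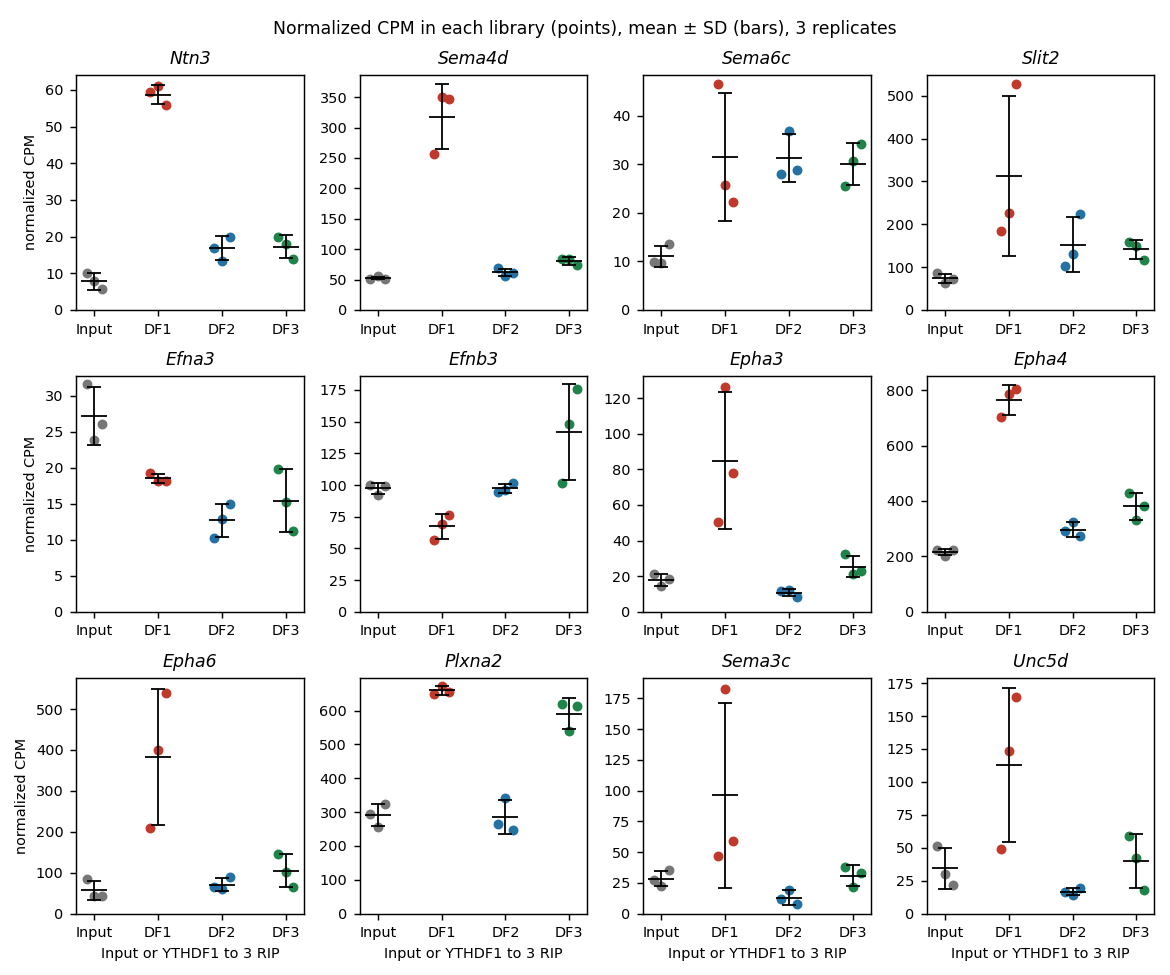
Normalized CPM of 12 members in each library by group, with the mean as a bar and the SD as a whisker (n = 3). Ntn3, Sema4d, Epha3, Epha4 and Epha6 stand highest in the YTHDF1 RIP, Sema6c is raised in all 3 RIPs, and Efna3 is lower in the YTHDF2 and YTHDF3 RIPs.

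The RIPs were also compared with each other, which asks whether the readers hold different transcripts and leaves the Input libraries out of the ratio. Against the YTHDF2 RIP, 20 of 63 members were at least 2-fold higher in the YTHDF1 RIP (31.7%), beside 11.4% of all genes. In the opposite direction edgeR called 0 members, with 2 at an unadjusted p under 0.05 and 0 called by DESeq2, beside 6.13% of all genes. The 20 were 13 of 30 receptors and 7 of 33 ligands. Without Input replicate 1 and YTHDF3 RIP replicate 1 they were 19 (29.7%, beside 11.1% of all genes). Without the 4 libraries low in inhibitory neuron markers they were 20 of 62 (32.3%, beside 10.1%).

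The widest gap was that of Epha3, 50.53 to 126.3 CPM with YTHDF1 and 8.417 to 12.11 CPM with YTHDF2 (log2 difference 2.99 ± 0.34, edgeR adjusted p = 0.000113), or 7.95-fold. Sema3c (46.72 to 182.8 CPM against 7.855 to 19.29 CPM) differed by 2.89 ± 0.52 (edgeR adjusted p = 0.0018). Unc5d (49.26 to 164.6 CPM against 13.91 to 19.3 CPM) differed by 2.76 ± 0.52 (edgeR adjusted p = 0.00234). All 3 lay above Input with YTHDF1 on average and below it with YTHDF2, and none of their YTHDF1 libraries overlapped with a YTHDF2 library. Epha6, Sema4d and Ntn3 followed at 2.44 ± 0.42 (edgeR adjusted p = 0.00135), 2.37 ± 0.17 (edgeR adjusted p = 1.42e-05) and 1.80 ± 0.24 (edgeR adjusted p = 0.000267). Both Robos, 5 EphA kinases, 3 class 3 semaphorins and 3 of the DCC and UNC5 group were among the 20.

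Against the YTHDF3 RIP, 10 members were higher in the YTHDF1 RIP (15.9%), beside 11.0% of all genes, and 1 was lower, beside 3.62%. The 10 were Sema4d, Epha6, Ntn3, Epha3, Sema3c, Unc5d, Sema3e, Nrp1, Epha7 and Epha4. Sema4d differed by 1.99 ± 0.17 on the log2 scale (edgeR adjusted p = 3.58e-05), Epha6 by 1.88 ± 0.41 (edgeR adjusted p = 0.00733) and Ntn3 by 1.77 ± 0.24 (edgeR adjusted p = 0.000465). The lower member was Efnb3, at 56.89 to 76.37 CPM with YTHDF1 and 101.6 to 176.1 CPM with YTHDF3 (-1.07 ± 0.20, edgeR adjusted p = 0.00337). Without YTHDF1 RIP replicate 1 or YTHDF3 RIP replicate 3 this difference was -0.95 and -0.89, short of 2-fold. The count of higher members was 5 (7.9%) without Input replicate 3, without YTHDF1 RIP replicate 2 or without YTHDF3 RIP replicate 2. All genes had 8.4, 8.1 and 7.3% there. It was 6 without YTHDF1 RIP replicate 3 (9.5%, beside 9.7% of all genes). Without the 4 libraries low in inhibitory neuron markers it was 4 (6.5%, beside 7.5%). These shares were near those of all genes. Without Input replicate 1 and YTHDF3 RIP replicate 1 the count was 9 (14.1%, beside 9.0%). Single calls among the 10 were fragile. That of Unc5d (1.50 ± 0.49, edgeR adjusted p = 0.0473) was lost without 9 of the 12 libraries, all but Input replicate 1, YTHDF1 RIP replicate 1 and YTHDF3 RIP replicate 1 (edgeR adjusted p-values 0.0614 to 0.205). That of Sema3c (1.64 ± 0.49, edgeR adjusted p = 0.0323) was lost without Input replicate 3, YTHDF1 RIP replicate 2 or any YTHDF3 library (edgeR adjusted p-values 0.0544 to 0.198). Both were also lost with a replicate block. Epha4 (1.00 ± 0.16, edgeR adjusted p = 0.00155), at the 2-fold limit, was not called under 11 of 13 other settings or, at 0.82 to 0.91, without Input replicate 3, YTHDF1 RIP replicates 2 or 3 or YTHDF3 RIP replicate 2, and Sema3e was at 0.99 without YTHDF1 RIP replicate 3. Scaling by library size alone turned this comparison to 3 higher and 9 lower members (4.8 and 14.3%, beside 4.5 and 20.2% of all genes). It shifted the median of all genes by -0.73 on the log2 scale.

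Between the YTHDF2 and YTHDF3 RIPs, edgeR called 0 members higher with YTHDF2 (0 at an unadjusted p under 0.05, 0 called by DESeq2), beside 3.97% of all genes, and 2 lower, beside 1.17%. A further 20 were lower at an unadjusted p under 0.05 only, 22 of 63 in all. At that level, in either direction, lay 4267 of all 16820 genes. The 2 were Plxna2, at 247.4 to 342.6 CPM with YTHDF2 and 539.5 to 621.1 CPM with YTHDF3 (-1.05 ± 0.18, edgeR adjusted p = 0.00827), and Epha3, at 8.417 to 12.11 and 21.07 to 32.3 CPM (-1.25 ± 0.32, edgeR adjusted p = 0.0384). The call of Epha3 was lost without Input replicate 2 or any YTHDF2 or YTHDF3 library (edgeR adjusted p-values 0.0547 to 0.12), and that of Plxna2 without YTHDF2 RIP replicate 3 (-0.96, short of 2-fold). Against Input, Plxna2 was not called in the YTHDF2 RIP (-0.03 ± 0.18, edgeR adjusted p = 0.901). Without Input replicate 1 and YTHDF3 RIP replicate 1 the count of lower members was 1 (1.6%, beside 0.4% of all genes). Without the 4 libraries low in inhibitory neuron markers it was 3 (4.8%, beside 0.7%).

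Genes with more exonic bases had higher log2 fold changes in all 3 RIPs, and the guidance genes have many. Exonic length joins all annotated exons of a gene and is not the length of 1 transcript. The transcripts searched for the motif had a median of 5491 bases over members and 3337 over protein-coding genes. That of Slit2 had 9960 bases. The median exonic length was 7140 bases over members and 3927.5 over all genes tested, and 55 of 63 members were above the latter, with a range from 1599 to 25433 bases (Slit2). Over all genes the rank correlation of exonic length with log2 fold change was 0.463, 0.384 and 0.528 for YTHDF1, YTHDF2 and YTHDF3. Over the 63 members it was 0.384, -0.212 and 0.117. These are correlations across genes in the same libraries and carry no test. The depleted Efna3 (2434 bases) and Efnb3 (3183 bases) were among the shorter members.

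**Figure D4:**
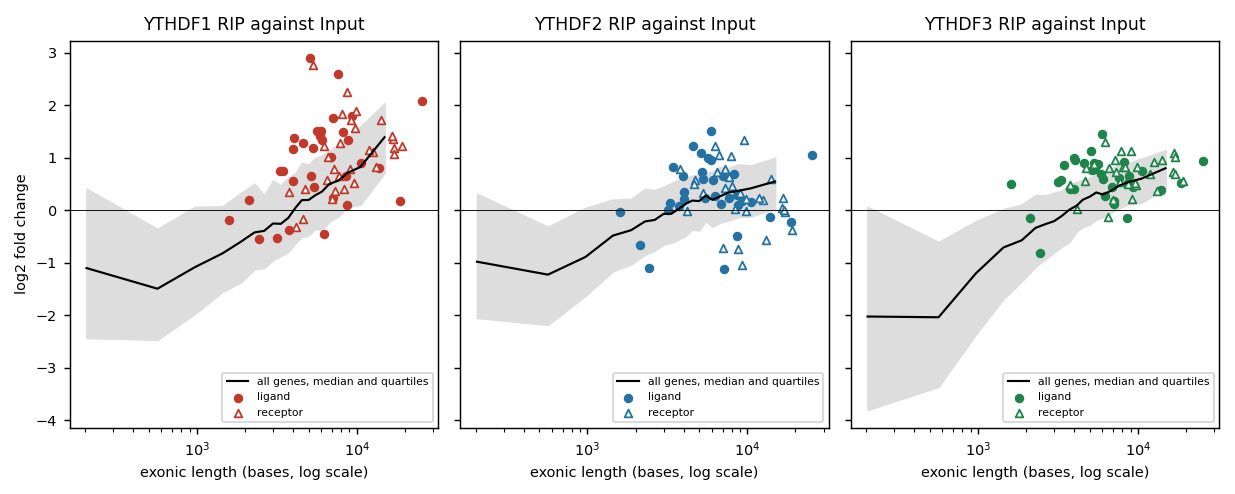
Log2 fold change against exonic length (log axis, bases) in each RIP, with ligands as circles and receptors as triangles. The line and band are the median and quartiles of all tested genes in 20 length bins, rising with length in all 3 panels (rank correlations 0.463, 0.384 and 0.528).

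When the fit removed the trend of log ratio with length from each library, 19 members were called enriched in the YTHDF1 RIP (30.2%), beside 22.4% of all genes. In the same RIP 2 were called depleted (3.2%, beside 24.8%). All 19 enriched were among the 38. In the YTHDF2 RIP 5 were enriched (7.9%, beside 13.2% of all genes) and 5 depleted (7.9%, beside 16.6%). In the YTHDF3 RIP 8 were enriched (12.7%, beside 15.5%) and 0 depleted, beside 16.9% of all genes. The median log2 fold changes of members were then 0.34, 0.10 and 0.35. The share of members called enriched was then still above that of all genes in the YTHDF1 RIP and below it in the others. The share called depleted was below that of all genes in each RIP.

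Single members differed in how much of their change this removal left. Ntn3 had 2.62 in the YTHDF1 RIP, Epha6 2.45, Sema4d 1.99, Epha3 1.52 and Epha4 1.18 on the log2 scale, all still called. Sema6c had 1.15, 1.28 and 1.21 with YTHDF1, YTHDF2 and YTHDF3 and was called in each. By contrast, Slit2 with 25433 exonic bases went from 2.09 to 0.25 (edgeR adjusted p = 0.531). Plxna2 went from 1.18 to -0.20, Epha5 from 1.36 to -0.03, and Sema3c (edgeR adjusted p = 0.0567) and Unc5d (0.90, edgeR adjusted p = 0.130) lost their calls against Input. In the YTHDF2 RIP, Epha3 (-1.09, edgeR adjusted p = 0.0268) and Unc5d (-1.42, edgeR adjusted p = 0.0424) became depleted. Between the YTHDF1 and YTHDF2 RIPs 11 members remained higher (17.5%, beside 9.2% of all genes), all among the 20, including Epha3, Sema3c, Unc5d, Epha6, Sema4d and Ntn3.

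**Figure D5:**
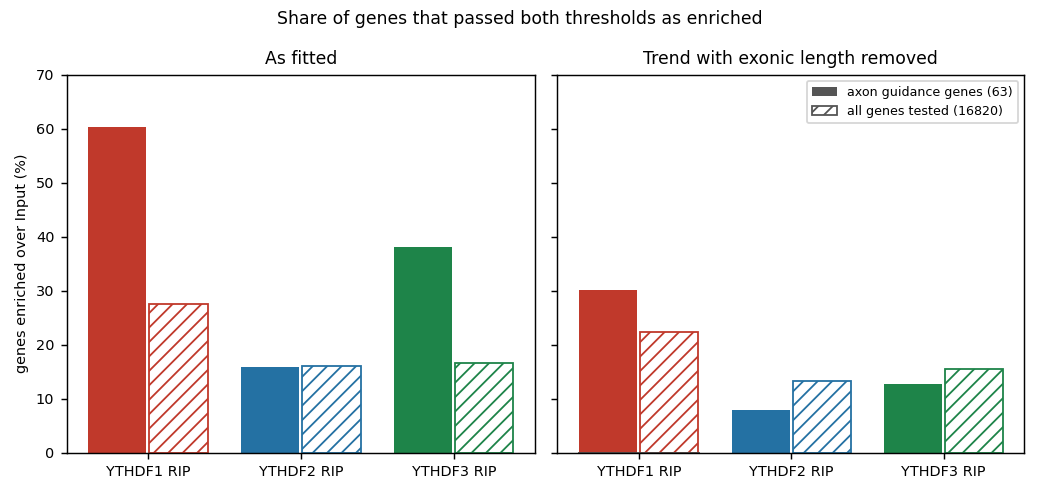
Percent of members and of all tested genes called enriched against Input, as fitted and with the length trend removed, from 0. Members reach 60.3, 15.9 and 38.1% as fitted and 30.2, 7.9 and 12.7% after removal, beside 27.5, 16.1 and 16.7% and 22.4, 13.2 and 15.5% of all genes.

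The 26 members named by rule carried 65 calls over the 6 comparisons, and 24 of these held under every alternative run, while 24 were lost by leaving out some single library. The calls that held throughout included Ntn3 in all 3 RIPs, Sema6c in all 3 RIPs, Epha3, Epha4, Epha6, Sema4d, Sema3e and Slit3 with YTHDF1, Sema4c and the depleted Efna3 with YTHDF2, and Plxna1 with YTHDF3.

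Other guidance genes were read in 2 lists. Of 19 other cues and receptors of guidance and adhesion, 13 (68.4%) were enriched with YTHDF1, 3 (15.8%) with YTHDF2 and 10 (52.6%) with YTHDF3, beside 27.5, 16.1 and 16.7% of all genes, and the rest were called in neither direction. The YTHDF2 share was near that of all genes. The YTHDF3 count rests on few libraries. It was 4 (21.1%) without Input replicate 2, beside 11.6% of all genes. Without Input replicate 1 and YTHDF3 RIP replicate 1 it was also 4 (21.1%, beside 10.6%). A fit of Input and YTHDF3 alone with the replicate block called 19 (100%, beside 36.4%). With the length trend removed the enriched were 9 (47.4%), 4 (21.1%) and 5 (26.3%), beside 22.4, 13.2 and 15.5% of all genes. Ptprd, a receptor tyrosine phosphatase of axons and synapses, had 158.7, 124.2 and 111.5 CPM in Input and 1570, 3886 and 2553 CPM in the YTHDF1 RIP, a log2 fold change of 4.34 ± 0.34 (edgeR adjusted p = 5.0e-06). That exceeded the change of every ligand or receptor above in the fit that keeps the length trend. Ptprd has 22822 exonic bases, and over all genes changes rose with exonic length. The part of length in the change of Ptprd was not tested. Chl1, an adhesion molecule that pairs with neuropilin, had 491, 369.5 and 462.4 CPM in Input and 1582, 7068 and 3487 CPM in the RIP (3.20 ± 0.44, edgeR adjusted p = 0.000139). Rgmb, a ligand of the netrin receptor neogenin, led the list in the YTHDF2 RIP, with 76.87, 64.28 and 60.37 CPM in Input and 150.3, 153.7 and 177.8 CPM (1.26 ± 0.21, edgeR adjusted p = 0.00119).

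Of 49 tested cytoplasmic effectors that act downstream of guidance receptors, 18 were enriched and 7 depleted with YTHDF1 (36.7 and 14.3%, beside 27.5 and 26.1% of all genes). With YTHDF2 10 were enriched and 8 depleted (20.4 and 16.3%, beside 16.1 and 19.3%), near the shares of all genes. With YTHDF3 they were 16 and 8 (32.7 and 16.3%, beside 16.7 and 23.2%). The enriched count with YTHDF3 was 12 (24.5%) without YTHDF3 RIP replicate 2, beside 12.1% of all genes. It was 28 (57.1%, beside 36.4%) in a fit of 2 groups with the replicate block. With the length trend removed the counts were 9 and 9 (18.4 and 18.4%, beside 22.4 and 24.8% of all genes), 6 and 14 (12.2 and 28.6%, beside 13.2 and 16.6%), and 7 and 7 (14.3 and 14.3%, beside 15.5 and 16.9%). Trio, an exchange factor for Rac downstream of DCC, had 254.1, 245.2 and 259.4 CPM in Input, 1424, 1263 and 1638 CPM with YTHDF1 and 693.1, 693.1 and 709.7 CPM with YTHDF3. Its log2 fold changes were 2.51 ± 0.17 (edgeR adjusted p = 2.47e-06) and 1.47 ± 0.16 (edgeR adjusted p = 7.17e-05), with little spread between replicates. Trio has 23395 exonic bases, and the part of length in its changes was not tested. Dpysl2 (CRMP2), a tubulin-binding effector of semaphorin signals, was enriched with YTHDF1 by 2.81 ± 0.52 (edgeR adjusted p = 0.000971). It had 755.6, 547.8 and 732.8 CPM in Input and 1411, 9253 and 3591 CPM in the YTHDF1 RIP, where replicate 2 stood far above the others. Abl1 and Nck1 were the highest named with YTHDF2, at 1.69 ± 0.30 (edgeR adjusted p = 0.00157) and 1.61 ± 0.24 (edgeR adjusted p = 0.000644). The depleted genes included small GTPases at the end of these pathways, which switch actin dynamics, but not these alone. Ablim3 was the lowest named with YTHDF1 (-1.73 ± 0.28, edgeR adjusted p = 0.000401). Evl was depleted with YTHDF3 (-1.72 ± 0.25, edgeR adjusted p = 0.000277). Rac1 had 164.9, 176.3 and 171.2 CPM in Input and 47.64, 70.56 and 52.54 CPM in the YTHDF1 RIP (-1.59 ± 0.18, edgeR adjusted p = 3.72e-05). Cdc42 had 151.5, 136.6 and 145.7 CPM in Input and 53.95, 45.9 and 49.94 CPM in the YTHDF2 RIP (-1.53 ± 0.23, edgeR adjusted p = 0.000627), and it had 54.47, 38.14 and 38.8 CPM in the YTHDF3 RIP (-1.72 ± 0.23, edgeR adjusted p = 0.000154). Rhoa had 89.75, 114 and 106.8 CPM in Input and 28.04, 35.59 and 35.35 CPM in the YTHDF2 RIP (-1.65 ± 0.27, edgeR adjusted p = 0.00113).

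Some members were lowest of their groups in the libraries with low markers, and examples are given. Such members were not counted, and no share over all genes was computed. Plxnb1, a receptor of Sema4d, had 16.38 CPM in Input replicate 1 against 94.4 and 98.65 CPM in replicates 2 and 3, and 19.72 CPM in YTHDF3 RIP replicate 1 against 120.5 and 158.3 CPM. Ephb4 (1.143 against 5.423 and 6.005 CPM in Input, 1.475 against 6.518 and 10.42 CPM in the YTHDF3 RIP) and Ntn1 (3.2 against 8.648 and 17.69 CPM, and 4.038 against 9.851 and 21.34 CPM) had the same 2 low libraries. Plxnb2 had 36.49 CPM in Input replicate 1 (97.48 and 108 CPM in the others) and 59.79 CPM in YTHDF3 RIP replicate 1 (130.2 and 161.4 CPM). Sema4b, Sema5b, Plxnd1, Ntn4 and Ephb3 were among further members lowest of their groups in these 2 libraries. All of these but Ntn4 and Ephb3 were named after their values were seen. In the YTHDF1 and YTHDF2 RIPs replicate 1 of Plxnb1 had 80.71 and 170.4 CPM, near its other replicates. Plxnb1 was not called in the YTHDF2 RIP (1.35 ± 0.68, edgeR adjusted p = 0.146), and without these 2 libraries it was (0.88, edgeR adjusted p = 0.0167). Ntng2, and Epha10, Plxna4 and Unc5b, which were likewise named after their values were seen, were lowest within each group in the 4 libraries low in inhibitory neuron markers. So were Sema3e, Sema6b and Efnb2, the last also named after its values were seen. Plxna4, a semaphorin co-receptor, had 220.5 CPM in Input replicate 3 (322.7 and 319 CPM in the others), 571.7 CPM in YTHDF1 RIP replicate 2 (917.4 and 1347 CPM), 296.1 CPM in YTHDF2 RIP replicate 2 (535 and 470.1 CPM) and 399.8 CPM in YTHDF3 RIP replicate 3 (708.8 and 562.2 CPM). Its YTHDF1 enrichment was 1.72 ± 0.35 (edgeR adjusted p = 0.00165), and 1.81 without these libraries (edgeR adjusted p = 0.00098). The part of other cell types in these values was not tested.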

How the data were processed

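RIP-seq was analysed in 12 libraries, 3 each of Input and of the YTHDF1, YTHDF2 and YTHDF3 RIPs. Per the study's methods and the submitters' processing notes, the authors extracted molecular identifiers and removed duplicates with UMI-tools 1.1.1, trimmed with cutadapt 3.4, aligned to mm10 (GRCm38) with STAR 2.7.7a and made the deposited counts with featureCounts 2.0.1 (Ensembl 97). Per the file headers, that run was set to the reverse strand and also counted multi-mapping fragments and fragments over several genes. The authors' DESeq2 tables hold a mean normalized signal per gene, used only to find the members, and fold changes and p-values, which were not used.

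Counts were tested in R 4.3.3 with edgeR 4.0.16 (TMM after the filter, 4 groups fitted together, biological coefficient of variation 0.322, Benjamini-Hochberg over 16820 genes), and with DESeq2 1.42.0 as an alternative. The scripts were tested on simulated data. The length alternative removed a loess trend (span 0.3) of each library's log ratio on exonic length. Alternatives were other scalings, filters of none or a mean of 50, DESeq2, fits of 2 groups, the replicate block, and leaving out each library.

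The rule for named members took, per RIP, the 5 highest and 5 lowest called changes over 100 mean normalized counts with no overlap between replicates, the 3 largest each way per pair of RIPs, and the member with the highest Input level per kilobase in each family, 26 in all. Of the other pathway genes it took the 2 highest and 2 lowest per RIP, of which those the text turns on are given. Plxnb1, Plxnb2, Plxnd1, Sema4b, Sema5b, Ephb4, Ntn1, Epha10, Unc5b and Plxna4, and members given by their change alone such as Epha7, Efnb1 and Efnb2, were chosen after their values were seen. The members, lists and rule were chosen with earlier results of these data known.

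Per the study's methods a replicate is 1 pooled lysate of 3 wells split over the 3 RIPs, with a shared Input. The methods call the replicates biological without saying whether they came from separate litters, so p-values measure the spread between these samples. Deviations of same-numbered libraries from their group means correlated over 0.1 in every pair for Input with YTHDF3 (0.539 to 0.835) and in no other comparison.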

Additional observations from a re-analysis of the deposited data

How the results depend on the processing

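The median log2 change of members against Input stayed above 0 in all 3 RIPs under every alternative run. The counts of called members moved more. Against Input, the share of members called depleted lay below that of all genes under every alternative run. Removing the length trend left 19 enriched and 2 depleted with YTHDF1 (38 and 1 in the main test), 5 and 5 with YTHDF2 (10 and 1), 8 and 0 with YTHDF3 (24 and 1), and 11, 6 and 0 that differed between YTHDF1 and YTHDF2, YTHDF1 and YTHDF3, and YTHDF2 and YTHDF3 (20, 11 and 2). With the replicate block added to it, 20 were enriched with YTHDF1, 6 enriched and 4 depleted with YTHDF2, 8 and 0 with YTHDF3, and 11, 7 and 0 differed between RIPs. Scaling by library size alone gave 3 depleted with YTHDF1, 44 enriched and 0 depleted with YTHDF3, and 11 and 9 that differed between YTHDF1 and YTHDF2 and between YTHDF2 and YTHDF3. The median difference of members between YTHDF1 and YTHDF3 turned from 0.26 to -0.48 under that scaling and to -0.03 with the length trend removed. That scaling moved the median of all genes by -0.40, 0.07 and 0.33 against Input. TMM over protein-coding genes gave 2 depleted with YTHDF1, 3 with YTHDF2, and 6 that differed between YTHDF1 and YTHDF3. DESeq2 size factors and DESeq2 each gave 2 depleted with YTHDF1. With no filter 0, 4 and 0 were depleted with YTHDF1, YTHDF2 and YTHDF3 and 10 differed between YTHDF2 and YTHDF3. A minimum mean of 50 gave 2 depleted with YTHDF1 and 7 that differed from YTHDF3. Fits of 2 groups alone gave 2 depleted with YTHDF1, 4 with YTHDF2, and 6 that differed between YTHDF1 and YTHDF3, with 5 for YTHDF2 against YTHDF3. Except where the setting itself removes length or libraries, the cause of these moves was not tested.

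The replicate numbers pair the samples by the data for Input and YTHDF3 (given with that RIP), and elsewhere same-numbered correlations ran from -0.355 to 0.553. Each Input and YTHDF3 library correlated best with its own number, which held in no other pair of groups. The replicate block in the fit of all 4 groups moved the count between YTHDF2 and YTHDF3 from 2 to 1 and left the other counts within 1.5 times. The block in fits of 2 groups gave 20 enriched and 0 depleted with YTHDF1, 6 enriched with YTHDF2, 53 with YTHDF3, and 2 that differed between YTHDF1 and YTHDF3, with 1 for YTHDF2 against YTHDF3.

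Leaving out a single library, 0 to 2 members were depleted with YTHDF1, 4 to 13 enriched and 1 to 4 depleted with YTHDF2, and 10 to 30 enriched and 0 to 1 depleted with YTHDF3, while 6 to 11 differed between YTHDF1 and YTHDF3 and 0 to 4 between YTHDF2 and YTHDF3. The 4 and 13 enriched with YTHDF2 were 6.2 and 20.6%, beside 11.3 and 18.2% of all genes. With YTHDF3 the 10 and 30 were 15.9 and 47.6%, beside 12.1 and 21.6%. Leaving out Input replicate 1 and YTHDF3 RIP replicate 1, an alternative chosen after seeing the data, gave 2 depleted with YTHDF1, 15 enriched with YTHDF3 and 1 that differed between YTHDF2 and YTHDF3. Leaving out the 4 libraries low in inhibitory neuron markers, also chosen after seeing the data, gave 0 depleted with YTHDF1, 4 with YTHDF2 and 0 with YTHDF3, and 4 and 3 that differed from YTHDF3 in the YTHDF1 and YTHDF2 RIPs.

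Of the named members, Epha5 and Plxna2 were called in the YTHDF1 RIP and changed sign with the length trend removed, to -0.03 and -0.20, and to -0.04 and -0.20 with the block as well. The other sign changes were of values that were not called. With the length trend removed, and then with the block as well, these were Efnb3 (0.08 and 0.07), Epha5 (-0.27 and -0.28), Nrp2 (-0.18 and -0.20), Plxna1 (-0.02 and -0.02), Robo1 (-0.46 and -0.46), Sema3e (-0.18 and -0.20) and Sema4d (-0.09 and -0.09) in the YTHDF2 RIP. In the YTHDF3 RIP they were Sema3c (-0.23 and -0.22), Sema3e (-0.04 and -0.05), Unc5d (-0.28 and -0.28) and, with the trend alone removed, Robo1 (-0.01). Library size alone turned Efnb3 (0.07), Plxna2 (0.05) and Unc5a (0.04) in the YTHDF2 RIP and Ephb6 (-0.06) in the YTHDF1 RIP. TMM over protein-coding genes turned Ntn4 (-0.01) and Robo1 (-0.07) in the YTHDF2 RIP and Unc5a (-0.02) in the YTHDF3 RIP, no filter turned Ntn4 (-0.01) and Robo1 (-0.06), and fits of 2 groups with and without the block turned Efnb3 (0.01 and 0.01). Without single libraries, the YTHDF2 values of Efnb3 ran from -0.04 to 0.02, of Ntn4 from -0.26 to 0.40, of Plxna2 from -0.19 to 0.06, of Robo1 from -0.14 to 0.20, of Sema3e from -0.02 to 0.39 and of Unc5a from -0.16 to 0.11. The YTHDF3 values of Sema3c ran from -0.09 to 0.34, of Unc5a from -0.20 to 0.25 and of Unc5d from -0.20 to 0.62, and the YTHDF1 value of Ntn4 from -0.72 to 0.02, where these ranges include the fits that leave out several libraries.

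Counts limit the rare members most: Sema3b was not tested, and in Input Plxnb3 had 0 to 2.037 CPM, Efna4 0.5863 to 1.93 CPM, Sema3f 0.8062 to 1.448 CPM and Sema3d 2.037 to 2.59 CPM. Intervals and tests cover the spread between 3 replicates, and without a control antibody the share of nonspecific recovery was not tested.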
